A study of Mus musculus with 3 samples.

Results

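The regions described here are the C1q-rich bins of mouse thymus sections, squares of 27 µm chosen by their content of *C1qa*, *C1qb* and *C1qc* transcripts. A bin entered when it held at least 300 genes, at most 30% mitochondrial UMIs (unique molecular identifiers, the counted transcripts), at least 3 UMIs of the 3 C1q genes and at least 0.15% of its UMIs from them. Of 56744 bins that passed the gene and mitochondrial limits, 2643 were C1q-rich. They were 1106 of 12044 kept bins in the section of mouse KO1134, 687 of 17425 in that of KO1308 and 850 of 27275 in that of WT1101, and values in threes are given in this order throughout. Since the 3 C1q genes chose the bins, their own levels are a description and were not tested.

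The spatial transcriptomes came from 1 thymus section each of 2 KO mice (*Trp53*-/-, 17 and 21 weeks old) and 1 WT mouse (*Trp53*+/+, 17 weeks old), all female C57BL/6 mice perfused with cold PBS. The ages are those of the labels, and the study's own sample list gives another age for the WT mouse. The KO mice lacked p53 in all tissues and not in macrophages alone. The tissue was frozen, sectioned and captured on BMKMANU S1000 slides, whose barcoded spots are smaller than a cell, and the KO sections were permeabilised slightly longer than the WT section according to the methods. A bin of 27 µm holds parts of several cells, and in such bins more cells of a type and more RNA per cell cannot be told apart. With 1 WT section, genotypes were compared without a test.

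C1q is the recognition component of the classical complement pathway. It is assembled from A, B and C chains that are encoded by *C1qa*, *C1qb* and *C1qc*, and in most tissues resident macrophages are its main source. In the thymus, most developing thymocytes die by apoptosis, and resident macrophages engulf and digest them, using receptors for phosphatidylserine and its bridging proteins, a large lysosomal compartment, and pathways that export cholesterol and iron. A *Timd4*-expressing and a *Cx3cr1*-expressing population of thymic macrophages are known.

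The 3 genes lie side by side on the minus strand of chromosome 4 in GRCm38, *C1qb* at chr4:136880129-136886187, *C1qc* at chr4:136889804-136893065 and *C1qa* at chr4:136895917-136898803. The promoters of *C1qb* and *C1qc*, at chr4:136886151-136886450 and chr4:136892865-136893164 on the minus strand, are shown because transcripts of these neighbouring genes define the bins, while the promoter of *C1qa* was not in the table used. Capitals mark GAGGAA, a core letter string bound by PU.1, the myeloid factor encoded by *Spi1*, and TGCTGA, a half-site of MAF factors, searched on both strands (TTCCTC and TCAGCA in reverse). The sequences are from RefSeq (GRCm38.p6), 5′ to 3′.
C1qb: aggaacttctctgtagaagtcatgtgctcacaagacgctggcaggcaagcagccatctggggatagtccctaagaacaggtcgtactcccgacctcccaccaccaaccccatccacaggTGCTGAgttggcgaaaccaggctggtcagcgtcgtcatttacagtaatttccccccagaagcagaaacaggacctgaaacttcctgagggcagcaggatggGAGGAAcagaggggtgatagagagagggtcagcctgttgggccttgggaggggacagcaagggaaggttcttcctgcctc
C1qc: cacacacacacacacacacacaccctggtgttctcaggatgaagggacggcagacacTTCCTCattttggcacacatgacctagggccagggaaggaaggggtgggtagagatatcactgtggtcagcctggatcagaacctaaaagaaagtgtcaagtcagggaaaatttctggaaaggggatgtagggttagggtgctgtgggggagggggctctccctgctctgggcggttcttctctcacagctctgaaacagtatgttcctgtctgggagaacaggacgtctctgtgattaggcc
The *C1qb* window held both strings and the *C1qc* window held the first on its reverse strand. Of 32851 mouse promoter windows of this length, 28.3% held GAGGAA and 19.5% held TGCTGA, so that matches are common and none was tested as a site.

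The sections differed in depth and in the tissue they held. Total UMIs were 31237062, 21089885 and 41581477, and the median kept bin held 2641, 834 and 1350 UMIs. Levels are given in CPM, the UMIs of a gene divided by all UMIs of the same bins and multiplied by 1000000. *Trp53* itself was counted at 17, 25.3 and 79.8 CPM over all kept bins and at 14.1, 29.5 and 77.9 inside the C1q-rich bins, below WT in each KO section but not at 0. The thymus area was set by 6 thymocyte and cortical genes (*Cd8b1*, *Ptcra*, *Arpp21*, *Themis*, *Prss16*, *Psmb11*), whose share over the surrounding 7 by 7 bins had to reach 50% of the section's mean. Bins in which *Cd79a*, *Cd79b* and *Ms4a1* of B cells outnumbered these 6 genes over the same squares, called B-cell-rich below, made up 16.3, 3.82 and 0% of kept bins, and *Ucp1* and *Adipoq* transcripts of fat were counted almost only in the KO sections. The part of these surroundings in a result was not tested, and counts that moved by over 1.5 times without the B-cell-rich bins are given both ways. Barcode names repeated between sections are slide positions and mark no shared cells.

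**Figure D1:**
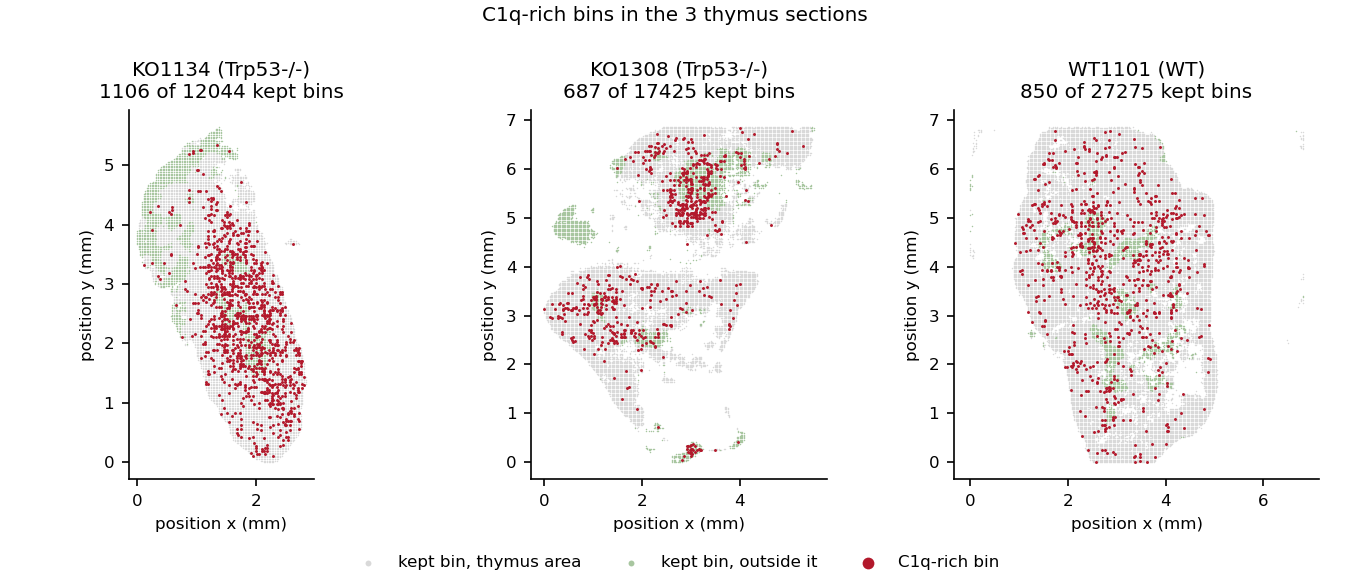
Positions of C1q-rich bins (red) among the kept bins of each section, with kept bins inside (grey) and outside (green) the area set by thymus genes; both axes are in mm. Red bins are 1106 of 12044 kept bins in KO1134, 687 of 17425 in KO1308 and 850 of 27275 in WT, where they lie mostly singly.

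At the limits used, C1q-rich bins were most frequent in KO1134. With at least 0.30% of UMIs from C1q the order turned, at 0.897, 1.22 and 0.84%. At 0.15% they were 9.18% of kept bins in KO1134 (95% exact binomial interval 8.67 to 9.71), 3.94% in KO1308 (3.66 to 4.24) and 3.12% in WT (2.91 to 3.33). These and all later intervals cover counting error only, not the spread between mice. KO1134 also had the most UMIs per bin, and a deeper bin reaches 3 C1q UMIs more easily. After each bin was thinned to 500 UMIs and called at 2 C1q UMIs, the shares were 4.51, 4.11 and 2.41%, with 171, 3811 and 2925 bins left out as too shallow. The KO1134 and KO1308 intervals then overlapped (4.14 to 4.89 and 3.78 to 4.45), and both lay above that of WT (2.22 to 2.61).

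Over all kept bins, C1q transcripts were more abundant in both KO sections than in WT. The 3 genes together gave 616, 549 and 338 CPM, which is 1.82 times the WT value in KO1134 (1.78 to 1.86) and 1.62 times in KO1308 (1.58 to 1.66). The 3 genes did not keep 1 proportion across sections. *C1qa* had 2.04 UMIs for each *C1qb* UMI inside the C1q-rich bins of KO1308 (1.86 to 2.25), against 1.07 in KO1134 and 0.853 in WT. With *C1qb* and *C1qc* alone, the ratio to WT over all kept bins was 1.72 in KO1134 and 1.2 in KO1308, so that the KO1308 excess rested mostly on *C1qa*.

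Inside the C1q-rich bins all 3 genes were abundant, as the choice of bins requires, with *C1qa* ahead in KO1308. *C1qa* was counted at 767, 1199 and 776 CPM, *C1qb* at 716, 586 and 909.6 and *C1qc* at 637, 723 and 758. The median C1q-rich bin held 5, 4 and 4 C1q UMIs, the largest 19, 20 and 17, and all 3 genes were present together in 52.8, 27.5 and 33.6% of them. Many bins sat at the limit, since 13, 46.9 and 42% had exactly 3 C1q UMIs. Between 0.15% and 0.17% of UMIs lay 274, 82 and 127 C1q-rich bins, and 365, 94 and 129 bins with 3 or more C1q UMIs fell between 0.13% and 0.15% and were left out. C1q-rich bins held 33.8, 27.7 and 26.2% of all C1q UMIs in 9.82, 6.06 and 3.63% of all UMIs, so most C1q transcripts lay in bins below the limits.

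The bins carried macrophage transcripts that the choice had not used. Each C1q-rich bin was paired with a bin of the same section that had no C1q UMI and the nearest total of UMIs (within 3.31%), and the summed counts of both classes in the 3 sections (3 pairs) were compared by edgeR's quasi-likelihood test with the section as a block, Benjamini-Hochberg adjusted over 13808 genes. Values after ± are approximate standard errors of the log2 ratio, calculated back from the ratio and the F value of the test. Of 21 tested macrophage core genes (of 24 listed), 9 rose and 0 fell, against 1.3% of all tested genes that rose and 0.311% that fell. The median log2 ratio was 1.11 over the list and -0.02 over all tested genes. Without KO1308, 2 of 21 core genes rose, and without the section as a block 0 did (10 at an unadjusted p under 0.05). Against C1q-free bins that lay 3 to 8 bins from their nearest C1q-rich bin, 5 did. These bins, called 3 to 8 bins away below, were matched on UMIs and need not lie near the C1q-rich bin they were paired with.

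The genes that rose included a chemokine, receptors and an adaptor. *Ms4a7*, a macrophage membrane protein, had 318, 75 and 136 UMIs in C1q-rich bins against 88, 28 and 22 in matched bins (log2 1.87 ± 0.22, adjusted p = 0.00302). *Pf4*, platelet factor 4, which tissue macrophages also make, had 70, 34 and 43 against 24, 5 and 2 (log2 2.29 ± 0.42, adjusted p = 0.032). *Adgre1*, which encodes F4/80, had 93, 25 and 40 against 37, 9 and 12 (log2 1.39 ± 0.25, adjusted p = 0.0208). Each was higher in every section, with the interval of the ratio above 1 in all 3. *Fcgr1*, the high-affinity IgG receptor, rose by log2 1.82 ± 0.32 (adjusted p = 0.0189), and *Tyrobp*, the adaptor of many myeloid receptors, by 1.53 ± 0.22 (adjusted p = 0.0147). *Mertk*, a receptor that takes up apoptotic cells, rose by 1.32 ± 0.26 (adjusted p = 0.0367). *Aif1*, which encodes IBA1, and *Mrc1*, the mannose receptor CD206, rose by 1.26 ± 0.18 and 1.11 ± 0.19 (adjusted p = 0.0067 and 0.0196).

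Several defining macrophage genes were higher in every section without passing the test. *Csf1r*, the receptor for the growth factors that macrophages need to survive, was counted at 120.4, 98.5 and 92.2 CPM in C1q-rich bins and at 80.1, 43 and 23.7 in matched bins (log2 1.06 ± 0.25, adjusted p = 0.0898). *Cd68*, a lysosomal membrane protein of macrophages, was at 88.3, 55.5 and 124 against 45.8, 21.5 and 21.7 (adjusted p = 0.073), *Maf* at 124, 96.7 and 74.6 against 90.9, 47.5 and 35.9 (adjusted p = 0.073) and *Spi1* at 37.3, 27.7 and 12.2 against 18.3, 11.6 and 4.74 (adjusted p = 0.0636). *Msr1*, a scavenger receptor, had 41, 13 and 18 UMIs against 23, 7 and 7 (adjusted p = 0.255). *Cd14*, *Itgam* and *Folr2* had too few UMIs to be tested, at most 10 in the C1q-rich bins of a section. Detection per bin was sparse even for the defining markers. *Adgre1* was seen in 7.05, 3.64 and 4.24% of C1q-rich bins and *Csf1r* in 24.5, 13 and 14.1%, while any core gene other than *Lyz2* was seen in 90.0, 65.4 and 76.2%, against 77.6, 41.9 and 42.5% of matched bins.

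**Figure D2:**
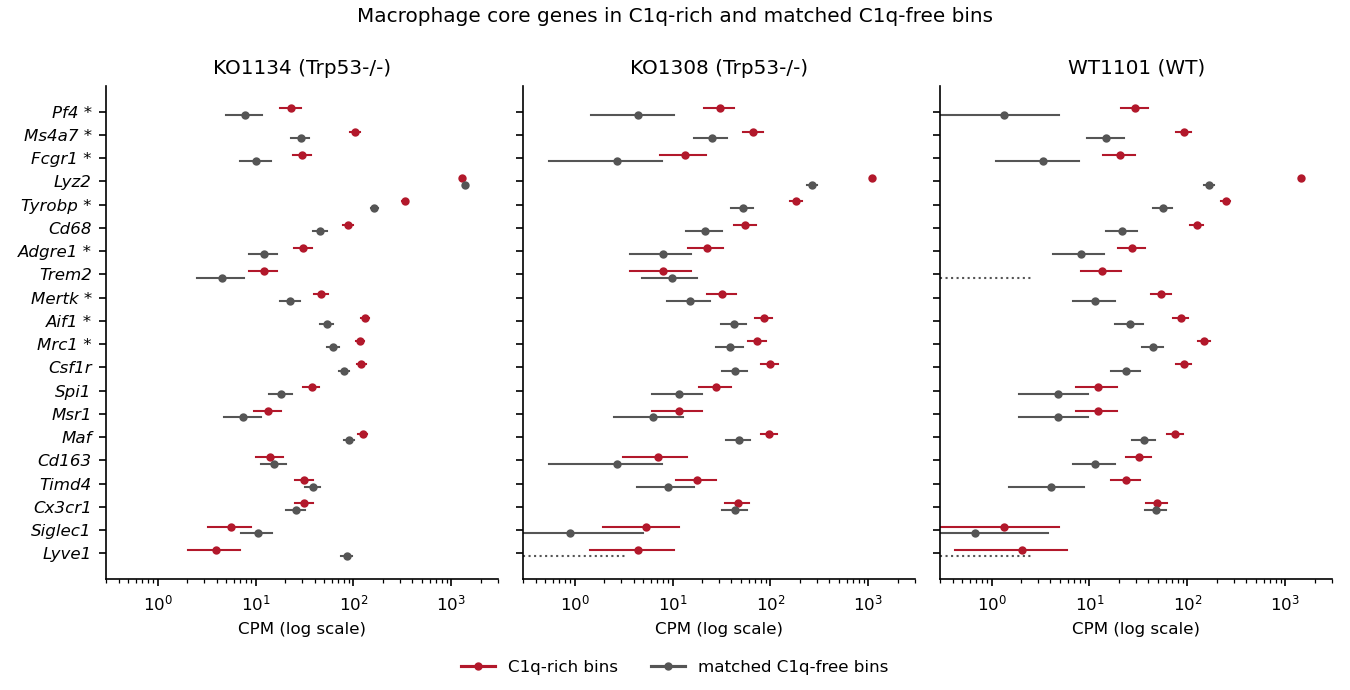
CPM (log scale) of 20 tested macrophage core genes in C1q-rich bins (red) and matched C1q-free bins (grey) of each section, with 95% Poisson intervals; dotted lines are upper limits where no UMI was counted, and asterisks mark genes past the edgeR test. Red points lie to the right of grey ones for most genes, while *Lyz2*, *Timd4*, *Lyve1*, *Cd163* and *Siglec1* are lower in the C1q-rich than in the matched bins of KO1134.

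*Lyz2*, *Lyve1*, *Timd4*, *Cd163* and *Siglec1* were lower in the C1q-rich than in the matched bins of KO1134, unlike the other tested core genes. Of the 21 tested, 15 were higher in all 3 sections. *Trem2* was seen in 33, 9 and 20 C1q-rich bins against 14, 10 and 0 matched bins (log2 1.32 ± 0.71, adjusted p = 0.521). *Lyz2*, lysozyme of macrophages and other myeloid cells, had 3915, 1228 and 2137 UMIs in C1q-rich bins against 4252, 297 and 246 in matched bins, and was thus far higher in KO1308 and WT but not in KO1134 (log2 1.60 ± 0.87, adjusted p = 0.604). *Lyve1*, a hyaluronan receptor of lymphatic endothelium and some macrophages, had 12, 5 and 3 against 260, 0 and 0 (adjusted p = 0.55). *Timd4*, the phosphatidylserine receptor TIM-4, had 96, 20 and 35 against 117, 10 and 6 (adjusted p = 0.788). *Cd163*, a haemoglobin scavenger receptor, had 43, 8 and 47 against 47, 3 and 17 and *Siglec1*, CD169, 17, 6 and 2 against 32, 1 and 1. B-cell-rich bins were 356 of the 1106 matched bins of KO1134 and 33 of its C1q-rich bins. When they were left out of both classes, *Lyz2* in KO1134 was at 3496 against 1310 UMIs, *Timd4* at 82 against 61, and *Lyve1* at 4 against 43. *Lyz2* was then higher in the C1q-rich bins of all 3 sections, *Lyve1* stayed lower in those of KO1134, and none of *Lyz2*, *Timd4* and *Lyve1* passed the test (adjusted p = 0.237, 0.271 and 0.313). Without the B-cell-rich bins, 12 of 20 tested core genes rose, among them *Csf1r* (adjusted p = 0.0133), *Maf* (0.0195) and *Spi1* (0.0325). In that setting 525 of all 13690 tested genes rose and 239 fell, the background for every later count without these bins.

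The macrophage core genes other than *Lyz2* followed the C1q content of the bin in steps. In WT, the core genes other than *Lyz2* summed to 364 CPM in matched C1q-free bins, 564 in bins with 1 or 2 C1q UMIs and 825 in bins with 3 or more UMIs but under 0.15%. In C1q-rich bins of that section they reached 1074 between 0.15% and 0.20%, 1261 between 0.20% and 0.30% and 1426 above that. From the first to the last class the values ran from 819 to 1668 in KO1134 and from 407 to 1162 in KO1308, where the lower 2 classes of C1q-rich bins differed by less than counting error (905 and 897). With *Lyz2* included, the sum rose at every step in WT only. In KO1134 it was at 2210 in matched C1q-free bins, 1854 with 1 or 2 C1q UMIs and 2177 with 3 or more under 0.15%. In KO1308 it was at 2146 in that last class, then at 2076, 1900 and 2302 in the classes of C1q-rich bins. *Apoe*, the apolipoprotein that macrophages secrete with exported cholesterol, ran from 485 to 4359.8 in WT, from 1277 to 3539 in KO1134 and from 870.2 to 2486 in KO1308. These steps are a description, since they follow the measure that chose the bins.

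**Figure D3:**
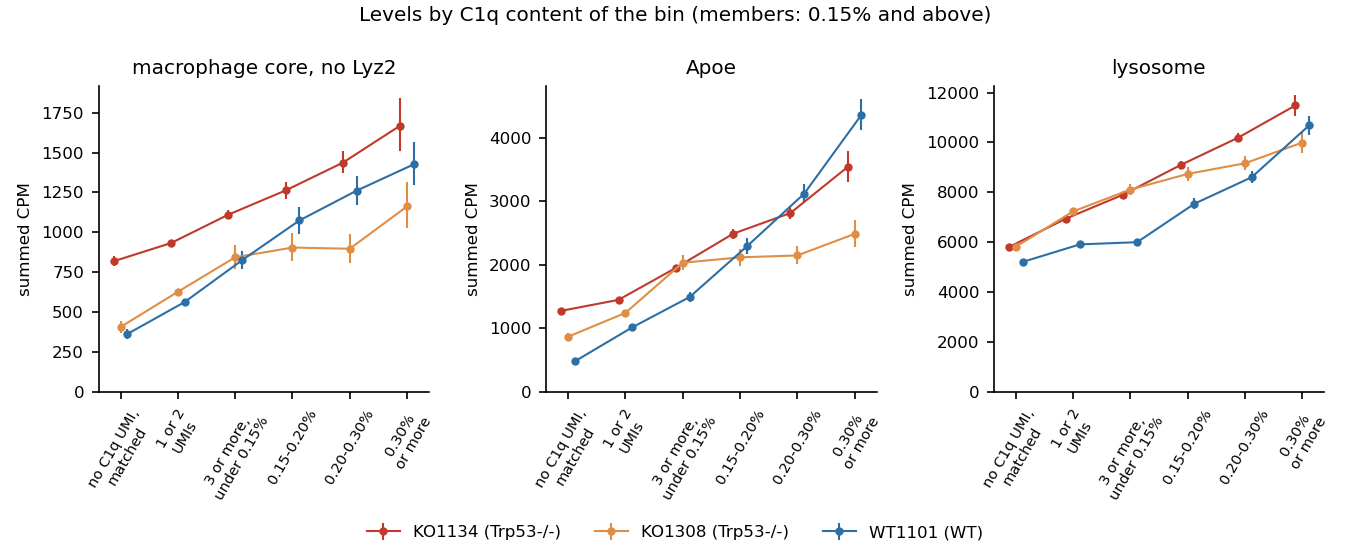
Summed CPM of the macrophage core genes without *Lyz2*, of *Apoe* and of the lysosome list in bins grouped by C1q content (x axis; C1q-rich bins start at 0.15%), by section, with 95% Poisson intervals. All 3 measures are lowest in the C1q-free bins and highest in the bins with most C1q in every section.

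Over all genes, 180 of 13808 rose in C1q-rich bins (1.3%) and 43 fell (0.311%). The 15 largest ratios that passed and pointed the same way in all 3 sections included the following genes. *Ccl12* and *Ccl8*, chemokines that attract monocytes, led with 74, 46 and 48 UMIs against 17, 7 and 3 (log2 2.60 ± 0.34, adjusted p = 0.00446) and 349, 207 and 67 against 54, 40 and 6 (log2 2.58 ± 0.20, adjusted p = 0.000207). *Cd300c2*, a myeloid receptor, had 189, 51 and 78 against 58, 6 and 14 (log2 2.09 ± 0.26, adjusted p = 0.00354), and *Clec4n*, which encodes the fungal sensor Dectin-2, had 141, 47 and 73 against 40, 10 and 17 (log2 1.91 ± 0.22, adjusted p = 0.00244). All 4 were higher in every section by at least 3.26-fold. *Tmem119*, best known from microglia, rose by log2 2.09 ± 0.34 (adjusted p = 0.0147), *Fcna*, a ficolin of the lectin complement pathway, by 1.84 ± 0.40 (adjusted p = 0.0488), and *Gpnmb*, a glycoprotein of lipid-laden macrophages, by 1.86 ± 0.40 (adjusted p = 0.0482). *Ctss*, the lysosomal protease cathepsin S, was the most abundant of this set at 1347, 871 and 736 CPM against 548, 242 and 120.0 (log2 1.82 ± 0.25, adjusted p = 0.0133). Beside *Ms4a7* and *Pf4*, the remaining genes of this set were *Gab2*, *Abcc3*, *Hormad1*, *Olfm4* and *Lpo*, with log2 ratios from 1.85 to 2.06. *Olfm4* and *Lpo*, which are known from epithelial secretions, were not known macrophage genes (59, 29 and 9 UMIs against 10, 9 and 2, and 56, 24 and 10 against 17, 5 and 2). Without KO1308 the count of higher genes was 34, without KO1134 146 and without WT 255. Of 72 named genes that passed, 25 lost the call without KO1134, 46 without KO1308 and 13 without WT.

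The genes that fell most were those of fat. All 5 tested adipocyte genes fell, with a median log2 ratio of -3.84. *Adipoq*, the fat hormone adiponectin, had 16, 28 and 0 UMIs in C1q-rich bins against 248, 239 and 4 in matched bins (log2 -3.59 ± 0.26, adjusted p = 0.000145), and *Ucp1*, the uncoupling protein of brown fat, 5, 1 and 0 against 315, 510 and 0 (adjusted p = 0.000314). These UMIs lay almost wholly in the matched bins of the KO sections. Mitochondrial UMIs were 2.74, 4.63 and 0.801% of matched bins against 0.949, 0.911 and 0.669% of C1q-rich bins. *Pck1*, *Cidec*, *Adig*, *Thrsp*, *Car3*, *Cfd*, *Agpat2*, *Cyp2e1* and *Chchd10* were, with *Adipoq*, the 10 lowest of the genes that fell and were lower in all 3 sections, at log2 ratios from -4.54 to -2.14. Inside the thymus area alone, *Pck1* (log2 -0.82), *Thrsp* (-1.17), *Agpat2* (-0.20) and *Chchd10* (0.21) did not pass, and 326 genes rose and 29 fell. Against bins 3 to 8 bins away, 2 of the 5 adipocyte genes fell. The count of lower genes was 14 without KO1134, 9 without KO1308 and 269 without WT.

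As a sum, lysosomal genes were higher by a similar factor in every section, while the ratios of single genes differed between sections. Summed over 28 genes they were at 9706, 9155 and 8599 CPM in C1q-rich bins and 5805, 5818 and 5211 in matched bins, a ratio of 1.67, 1.57 and 1.65. Of the 28, 9 rose and 0 fell (median log2 0.75), with 20 past the test without the B-cell-rich bins, 5 against bins 3 to 8 bins away and 3 without KO1308. *Ctsc*, cathepsin C, was at 191, 230.0 and 158 against 87, 76.1 and 53.5 (log2 1.33 ± 0.15, adjusted p = 0.00242), and *Lgmn*, the protease legumain, at 134, 142 and 118 against 58.6, 57.3 and 24.4 (log2 1.45 ± 0.21, adjusted p = 0.013). *Grn*, progranulin, was at 339.8, 295 and 243 against 171, 150.4 and 80.0 (log2 1.10 ± 0.16, adjusted p = 0.0105). For these 3 genes the interval of the ratio lay above 1 in every section. *Ctsl*, cathepsin L, which thymic cortical epithelium also uses, was at 2229, 2208 and 2003 against 1301, 1861 and 2147 (adjusted p = 0.712), higher in the C1q-rich bins of the KO sections and lower in those of WT. The sum was not repeated without this abundant gene. *Lipa*, lysosomal acid lipase, was lower in all 3 sections, at 61.5, 51.9 and 120.0 against 73.9, 71.6 and 130.1 (adjusted p = 0.366).

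Genes for the uptake of apoptotic cells rose in part. Of 19 tested, 3 rose and 0 fell (median log2 0.55): *Mertk*, *Itgb5*, an integrin subunit that binds MFG-E8 (log2 1.33 ± 0.25, adjusted p = 0.0262), and *Anxa1*, annexin A1 (log2 1.19 ± 0.20, adjusted p = 0.0174). *Axl*, the receptor related to *Mertk*, was at 196, 107 and 163 CPM against 117, 34 and 28.5 and thus higher in every section without passing (adjusted p = 0.177). The bridging protein *Gas6* was at 78.5, 124 and 51.5 against 52.3, 89.5 and 40.7 (adjusted p = 0.247). *Pros1*, the related protein S, was at 36, 39.4 and 28.5 against 25.2, 26 and 13.6 (adjusted p = 0.235). Both were higher in every section without passing, whereas *Mfge8*, another bridging protein, was at 108, 249 and 59.6 against 164, 98.5 and 57.6, with the classes in the opposite order in KO1134. Without KO1308, 1 of 18 clearance genes rose, and without the B-cell-rich bins 5 of 17. *Tyro3*, the third receptor of this family, had 16, 12 and 1 UMIs in C1q-rich bins.

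Of 14 tested lipid genes 1 rose (*Gpnmb*) and 0 fell, and without the B-cell-rich bins 5 rose. *Apoe* was the most abundant, with 8246, 2461 and 4479 UMIs against 3903, 972 and 715, higher in every section (log2 1.60 ± 0.32, adjusted p = 0.0636). *Abca1*, a cholesterol exporter, was at 108, 96.7 and 149 CPM against 98.1, 47.5 and 52.9 (adjusted p = 0.283) and *Nr1h3*, which encodes the sterol sensor LXRα, at 49.4, 45.7 and 31.9 against 28.1, 37.6 and 12.2 (adjusted p = 0.186). *Fabp4* and *Lpl*, which fat cells also express, were lower in the C1q-rich bins of both KO sections and higher in those of WT. Of 11 iron and haem genes, 1 rose, *Slc40a1*, which encodes the iron exporter ferroportin, at 59.2, 32.2 and 76.6 against 30.4, 9.85 and 27.1 (log2 1.21 ± 0.21, adjusted p = 0.0174). *Hmox1*, haem oxygenase, had 66, 16 and 48 UMIs against 40, 3 and 16 (adjusted p = 0.101), and *Spic*, the transcription factor of iron-recycling macrophages, 58, 12 and 20 against 40, 3 and 3 (adjusted p = 0.258). Without the B-cell-rich bins 4 iron and haem genes rose and 1 fell. Without KO1308, 0 lipid and 0 iron genes passed by edgeR (3 of each at an unadjusted p under 0.05).

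Complement genes other than C1q were higher in the C1q-rich bins of KO1308 and WT, with little difference in KO1134. Summed over the list they were at 1172, 1537 and 619 CPM against 1077, 653 and 194, and 2 of 15 tested genes rose. These were *C1ra*, a protease that C1q activates (285, 65 and 47 UMIs against 153, 20 and 25, log2 1.01 ± 0.20, adjusted p = 0.0337), and *Itgax*, the CD11c chain of a complement receptor that also marks dendritic cells (214, 58 and 31 against 81, 25 and 6, log2 1.39 ± 0.23, adjusted p = 0.0158). *C1s1*, the partner protease, was at 95.8, 118 and 52.2 against 71.6, 50.1 and 12.2 (adjusted p = 0.189), and *C3*, the central component, at 447, 564 and 239.9 against 370.3, 296 and 63 (adjusted p = 0.321), both higher in every section. Without KO1134 6 of 13 complement genes rose, without the B-cell-rich bins 6 of 15, and without KO1308 0 of 14. *Vsig4*, a complement receptor of some resident macrophages, had 15, 1 and 0 UMIs and was not tested. Among Fc receptors, *Fcgr1* and *Fcer1g*, the signalling chain, rose (2 of 6), the latter from 81.8, 36.7 and 44.1 to 178, 111 and 201 CPM (log2 1.52 ± 0.21, adjusted p = 0.0105). *Fcgr2b*, the inhibitory receptor, was at 51.7, 68.9 and 21 against 36, 23.3 and 9.49 (adjusted p = 0.102). *Fcgr3*, a low-affinity activating receptor, was at 26.5, 43.9 and 33.2 against 15.7, 8.06 and 16.3 (adjusted p = 0.0898), so that both were higher in every section without passing. The count of Fc receptor genes was 1 of 5 without KO1134, 0 of 6 without KO1308 and 4 of 6 without WT.

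Part of the MHC class II, interferon and chemokine genes rose with C1q. Of 7 MHC class II genes, 4 rose and all 7 were higher in every section. *Cd74*, the invariant chain, was at 3114, 3211 and 1455 CPM against 1714, 1329.5 and 606 (log2 1.06 ± 0.18, adjusted p = 0.0178) and *H2-Aa* at 1365, 1444 and 624 against 766, 565 and 255 (log2 1.08 ± 0.17, adjusted p = 0.0133), while *H2-Ab1* and *H2-Eb1* rose by log2 0.99 ± 0.16 and 1.12 ± 0.18. B cells, dendritic cells and thymic epithelium carry these transcripts too. Without the B-cell-rich bins all 7 rose. Against bins 3 to 8 bins away 0 of the 7 passed (7 at an unadjusted p under 0.05), without KO1308 0 (5 unadjusted) and without WT 1. Of 15 interferon-response genes 8 rose. *Ifitm3*, a membrane protein that restricts virus entry, was at 710.0, 510.2 and 354 against 349.7, 228 and 160.0 (log2 1.03 ± 0.14, adjusted p = 0.00544), and *Irf7*, a transcription factor of the interferon response, at 245, 166 and 79.3 against 125, 81.5 and 25.1 (log2 1.08 ± 0.17, adjusted p = 0.0125). *Isg15*, *Oasl2*, *Oas1a*, *Ifi44* and *Bst2* rose by log2 0.68 to 1.21, whereas *Ifit2* was at 37.6, 21.5 and 19.7 against 35, 17 and 25.8 (adjusted p = 0.948). Of the 15, 3 passed without KO1134 and 1 without KO1308.

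Of 17 tested chemokine genes, 7 rose: *Ccl8*, *Ccl12*, *Ccl5*, *Ccl22*, *Cxcl9*, *Cxcl10* and *Cxcl16*. *Cxcl16*, a membrane-bound chemokine, was at 109, 105 and 90.8 CPM against 47.8, 38.5 and 23 (log2 1.40 ± 0.19, adjusted p = 0.00506). *Ccl5*, which cytotoxic lymphocytes also make, was at 989.9, 285 and 173 against 401, 90.4 and 42.7 (log2 1.54 ± 0.17, adjusted p = 0.00239), and the interferon-γ-induced *Cxcl9* at 75.5, 84.1 and 13.6 against 32.7, 37.6 and 3.39 (log2 1.18 ± 0.20, adjusted p = 0.0174). Without KO1308, 3 of 15 passed, and without the B-cell-rich bins 12 of 15. *Ccl25*, a product of cortical epithelium, was at 561, 445 and 546 against 406, 489.7 and 754 (adjusted p = 0.871), higher only in KO1134. *Cxcl12*, made by the same cells, was at 169.7, 170.1 and 99 against 233, 166 and 159 (adjusted p = 0.203). None of 11 tested cytokine and growth factor genes passed the edgeR test (6 at an unadjusted p under 0.05), and 1 passed with DESeq2. Without WT, 2 of 10 rose and 1 fell. *Csf1*, a ligand of CSF1R, had 55, 43 and 16 UMIs against 49, 24 and 8 (adjusted p = 0.527). *Il34*, its other ligand, had 37, 27 and 27 against 26, 12 and 10 (adjusted p = 0.22). Both were higher in each section by few counts. *Igf1*, a growth factor of resident macrophages, was at 68, 44.8 and 88.8 against 30.1, 29.5 and 11.5 (adjusted p = 0.232), *Il1b* had 19, 16 and 7 UMIs and *Il6* 3, 0 and 0.

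Markers of the known thymic macrophage populations were present at low counts. Of 11 tested, 5 rose: *Slc40a1*, *Vcam1*, *Hpgd*, *Gpnmb* and *Mrc1*. *Vcam1*, an adhesion molecule, was at 251, 249.7 and 370.1 CPM against 123, 119 and 94.2 (log2 1.27 ± 0.20, adjusted p = 0.0183) and *Hpgd*, which degrades prostaglandins, at 192, 135 and 195 against 108, 89.5 and 80.7 (log2 0.83 ± 0.16, adjusted p = 0.0308). *Cx3cr1*, the fractalkine receptor, differed little between the classes, with 96, 52 and 72 UMIs against 79, 48 and 70 (log2 0.08 ± 0.17, adjusted p = 0.923). *Timd4* was seen in 78, 18 and 31 C1q-rich bins, *Cx3cr1* in 86, 48 and 66 and both together in 6, 0 and 4. The count of genes that rose was 2 of 8 without KO1134, 0 of 10 without KO1308 and 3 of 11 against bins 3 to 8 bins away.

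Transcripts of other cell types in the C1q-rich bins describe what else these squares held. Of 14 thymocyte genes, 1 fell and 10 were lower in every section (median log2 -0.41). *Cd8b1*, a chain of the CD8 co-receptor, was at 60.2, 286 and 931 CPM against 108, 493 and 1223 (log2 -0.74 ± 0.16, adjusted p = 0.0499). None of 12 proliferation genes passed (2 at an unadjusted p under 0.05, 0 with DESeq2), and their sum was at 1079, 1166 and 1892 against 868, 1789 and 2633. Cortical epithelial genes summed to 2229, 2023 and 1897 against 1766, 2119 and 2517, with 0 of 7 past the test in either direction (1 at an unadjusted p under 0.05, 0 with DESeq2). Medullary epithelial genes were higher in every section, at 1105, 1085 and 459.5 against 611, 496 and 134, and 2 of 7 rose (3 without the B-cell-rich bins), *Krt5* (log2 1.02 ± 0.15, adjusted p = 0.0105) and *Krt14* (log2 1.40 ± 0.20, adjusted p = 0.00769), the keratins of the medulla. *Dcn*, decorin of fibroblasts, rose as 1 of 7 fibroblast genes (log2 0.84 ± 0.15, adjusted p = 0.0189). Without the B-cell-rich bins, 6 of 14 thymocyte genes, 8 of 12 proliferation genes and 1 of 10 cytokine genes fell, and 5 of 6 plasma cell genes, 2 of 5 B cell genes (median log2 0.96), 2 of 7 fibroblast genes, 1 of 5 endothelial genes and 1 of 13 p53 targets rose. Over all 13690 genes tested in that setting, 239 fell and 525 rose. In the thymus area, 4 of 6 plasma cell genes rose and 5 of 14 thymocyte genes fell, while over all 13147 genes tested there 326 rose and 29 fell. *Cd8b1* did not pass without KO1134 or without KO1308, nor *Dcn* without KO1308 or without WT. With all bins, none of the tested endothelial (5), B cell (5), plasma cell (6), erythroid (4), neutrophil (2) or cytotoxic lymphocyte genes (5) passed, and no p53 target did (13 tested, median log2 0.00) by edgeR or DESeq2. At an unadjusted p under 0.05 edgeR gave 1 endothelial, 0 B cell, 4 plasma cell, 0 erythroid, 0 neutrophil and 1 cytotoxic lymphocyte gene and 1 p53 target. Of these lists, 2 of 5 B cell genes rose and 1 of 2 cytotoxic lymphocyte genes fell without KO1134, and 1 cytotoxic lymphocyte gene and 1 p53 target rose without WT.

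C1q-rich bins also held more of some dendritic cell transcripts. Of 12 tested genes 3 rose (1 without KO1308), *Itgax*, *Ccl22* and *Fscn1*, the actin-bundling fascin of mature dendritic cells (223, 119 and 65 UMIs against 93, 38 and 22, log2 1.37 ± 0.18, adjusted p = 0.00422). Bins that passed the same limits for *Fscn1*, *Ccr7*, *Ccl22* and *Ccl17* in place of the C1q genes were 15, 9 and 19 of the C1q-rich bins (1.36, 1.31 and 2.24%) and 11, 6 and 4 of the matched bins (0.995, 0.873 and 0.471%). The intervals overlapped in both KO sections but not in WT (1.35 to 3.47 against 0.128 to 1.2). Of those dendritic-gene-rich bins, 15.2, 10 and 10.1% were C1q-rich.

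C1q-rich bins lay near one another, and medullary genes made up more of the epithelial UMIs around them. Of kept neighbours, counted once for each C1q-rich bin they touched, 19.4, 13.2 and 7.45% were themselves C1q-rich. Around matched bins, counted likewise, the shares were 5.27, 3.85 and 2.47%. The C1q-rich bins formed 474, 406 and 631 connected groups, the largest of 33, 34 and 8 bins, and 25, 44.3 and 57.4% had no C1q-rich neighbour. The KO sections held the large groups and the WT section mostly single bins. Of epithelial UMIs in the surrounding 48 bins, medullary genes made up 31.5, 34.6 and 13.6% around C1q-rich bins, 28, 18.8 and 5.08% around matched bins and 25.4, 25.7 and 7.99% around all kept bins. The share was thus higher around C1q-rich bins than around matched or all kept bins in every section. In KO1134 cortical genes were higher around C1q-rich bins too, at 2348 against 1656 CPM around matched bins. They were lower in KO1308 (2085 against 2146) and WT (2133 against 2329). The shares were not repeated without the B-cell-rich bins. The medullary share was 30.9, 47.5 and 19.6% around C1q-rich bins with a *Timd4* UMI and 35.3, 41.2 and 14.3% around those with a *Cx3cr1* UMI, in no common order across sections. C1q-rich bins lay in the thymus area in 85.1, 68.4 and 84.6% of cases, against 79, 81.9 and 91% of all kept bins, and 33, 77 and 0 of them were B-cell-rich. The area was set by thymocyte and cortical genes, so bins outside it may still be medulla.

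With distance, C1q was lower at once, and within 1 bin the other macrophage genes were lower by a smaller factor. In the ring of bins that touched a C1q-rich bin, C1q was at 584, 544 and 365 CPM, against 2121, 2508 and 2443 inside the C1q-rich bins, as the choice of bins requires. The core genes other than *Lyz2*, which the choice did not use, were at 1008, 719 and 604 in the ring against 1361, 953 and 1219 inside. In WT and KO1308 they were lower again, at 402 and 442, at 108 µm, while in KO1134 they were at 786 at 108 µm and at 1024 at 189 µm. Medullary epithelial genes were at 460.1, 579 and 146 at 108 µm against 1105, 1085 and 459.5 inside. In KO1134 they were lowest at 81 µm (343) and higher again at 189 µm (807), unlike in the other 2 sections. Thymocyte genes were at 2111, 5236 and 8693 against 1789.6, 2817 and 7050.5 inside. These profiles are a description, since neighbouring bins are not independent.

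**Figure D4:**
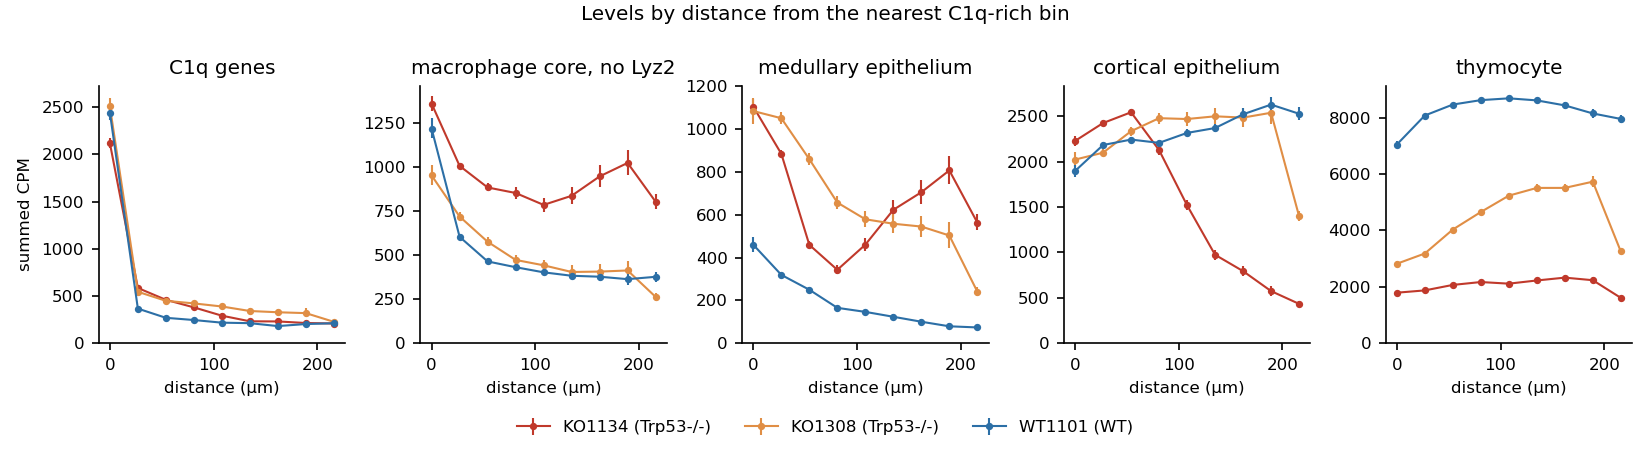
Summed CPM of 5 gene groups by distance from the nearest C1q-rich bin (0 is the C1q-rich bins, the last point is 216 µm or more), by section, with 95% Poisson intervals. C1q drops within 1 bin in all 3 sections, and the core and medullary genes are lower over several bins in WT and KO1308.

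Inside the C1q-rich bins, the macrophage core sum was at the WT level in KO1134 and below it in KO1308, while complement, MHC class II, interferon and chemokine transcripts were higher in both KO sections. Both ratios use the same WT section. The core list summed to 2642, 2052 and 2668 CPM, a ratio to WT of 0.99 (0.953 to 1.03) in KO1134 and 0.769 (0.73 to 0.81) in KO1308. Without *Lyz2*, the ratios were 1.12 (1.06 to 1.18) and 0.782 (0.724 to 0.844), above WT in KO1134. In the matched bins the whole core list was at 4.16 and 1.27 times WT. The lysosome list differed little, at ratios of 1.13 and 1.06. The thymic macrophage subset list was lower inside the C1q-rich bins, at 0.792 and 0.667, but not in the matched bins, at 1.62 and 1.08. Within the core list the receptors *Mrc1* and *Cd163* were lower in the C1q-rich bins of both KO sections. There *Mrc1* was at 117, 73.4 and 148 CPM and *Cd163* at 43, 8 and 47 UMIs (14.1, 7.16 and 31.9 CPM). In matched bins *Mrc1* was seen in 13.5, 5.24 and 6.71% and *Cd163* in 3.80, 0.437 and 1.88%, above WT in the deeper KO1134 only. *Spi1* was higher at 37.3, 27.7 and 12.2 CPM, and was above WT in the matched bins of both KO sections as well. In bins with at least 0.30% C1q UMIs the mean *Cd163* level of the KO sections was 1.07 times WT, so that its order turned. *Csf1r* and *Adgre1* stayed within 0.825 to 1.31 times the WT level.

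The excess in complement was spread over many genes. Of 12 complement genes with at least 100 UMIs, 7 were over 2-fold higher than WT in KO1134 and 9 in KO1308, against 6.54% and 9.07% of 9297 genes. None was over 2-fold lower, against 5.82% and 6.21% of all. *C4b*, a component cleaved after C1 is activated, had 148, 63 and 14 UMIs, a ratio of 5.1 (2.95 to 9.56) and 5.94 (3.29 to 11.5). *C3* was at 447, 564 and 239.9 CPM and *Serping1*, the C1 inhibitor, at 58.2, 95.8 and 24.4. The same list summed to a still larger excess in the matched C1q-free bins, with ratios to WT of 5.56 and 3.37 against 1.89 and 2.48 in C1q-rich bins. The excess was thus present outside the C1q-rich bins too.

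Antigen presentation and interferon genes went the same way in both KO sections. MHC class II genes summed to 7887, 7847 and 3865 CPM in C1q-rich bins, 2.04 and 2.03 times WT, against 2.6 and 1.88 times in the matched bins. *Ciita*, their master regulator, had 110, 39 and 14 UMIs. Interferon-response genes summed to 3384, 2692 and 1546, 2.19 and 1.74 times WT against 3.36 and 2.22 times in the matched bins, so that neither excess was limited to the C1q-rich bins. Inside them, 10 and 5 of 15 interferon-response genes were over 2-fold higher, against 6.54% and 9.07% of all 9297 genes. *Oas1a*, a sensor of double-stranded RNA, was at 62.1, 41.2 and 12.9 and *Ifi27l2a*, an interferon-induced gene, at 892, 897 and 375. The chemokine list was at 2.18 and 1.55 times WT inside and 1.6 and 1.05 times in the matched bins. Of 12 chemokine genes, 7 and 6 were over 2-fold higher, against 6.54% and 9.07% of all 9297 genes. *Cxcl9* was at 5.57 (3.53 to 9.29) and 6.21 (3.8 to 10.6) times WT and *Ccl8* at 2.51 (1.93 to 3.32) and 4.08 (3.08 to 5.46). In the matched bins both genes were above WT in each KO section too. The median ratio of the 12 genes was 2.65 and 1.88 inside and 2.51 and 1.89 in the matched bins. *Cxcl13*, which attracts B cells, had 10, 84 and 0 UMIs and was thus high in KO1308 only, where B cell genes in these bins summed to 386 CPM against 153 and 81.3. Medullary epithelial genes, which moved in the same direction, were at 1105, 1085 and 459.5, 2.4 and 2.36 times WT inside and 4.58 and 3.71 times in the matched bins.

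Thymocyte transcripts were much lower in the C1q-rich bins of both KO sections, at 1789.6, 2817 and 7050.5 CPM. Of 13 genes, 11 and 8 were over 2-fold lower than WT, against 5.82% and 6.21% of all 9297 genes. *Rag1*, the recombinase of immature thymocytes, was at 21.9, 148 and 533, and *Cd8a* at 116, 411 and 1474. The matched C1q-free bins gave nearly the same thymocyte ratios, 0.234 and 0.44 against 0.254 and 0.400. All these values are shares of the same totals, so a lower list and a higher list are not independent of each other. Proliferation genes were at 1079, 1166 and 1892 and p53 target genes at 509, 649 and 915, and among the targets *Ccng1*, cyclin G1, was at 71.3, 70.7 and 157 and *Bax* at 73.9, 72.5 and 71.2.

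**Figure D5:**
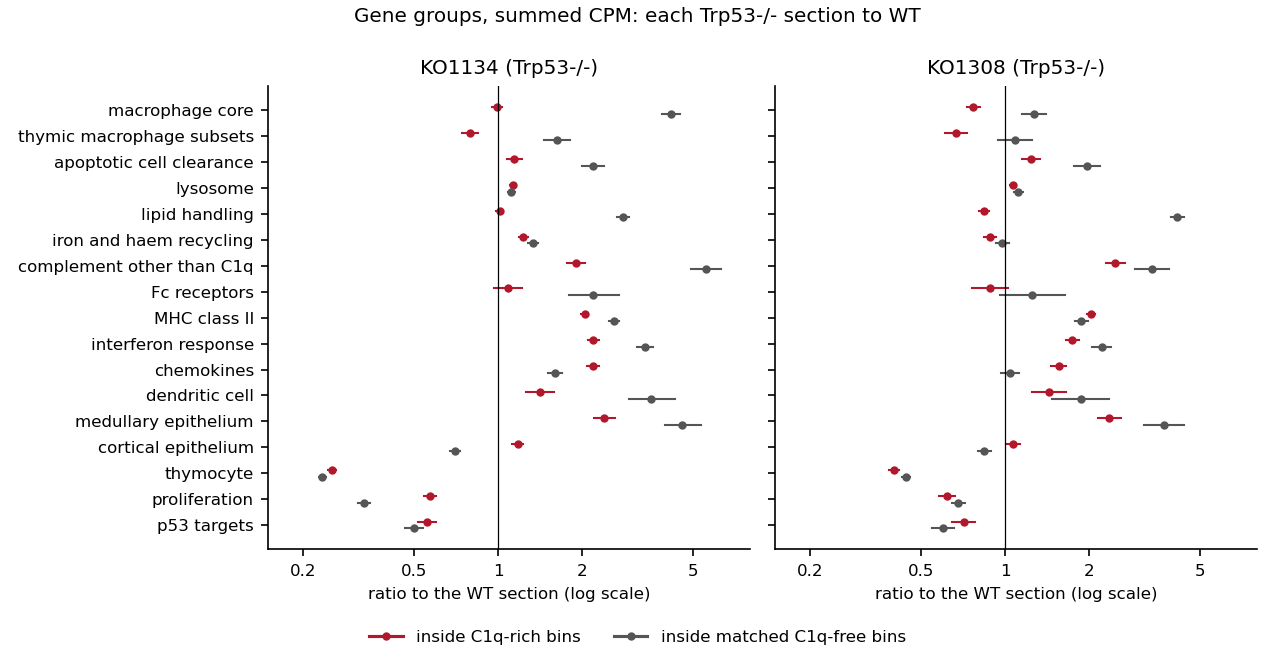
Ratio of summed CPM of 17 gene groups in each KO section to the WT section (log scale), inside C1q-rich bins (red) and matched C1q-free bins (grey), with 95% counting intervals. In C1q-rich bins the core ratios are 0.99 and 0.769 and the lysosome ratios 1.13 and 1.06, while complement, MHC class II, interferon and medullary ratios lie to the right and thymocyte ratios to the left in both KO sections.

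Among single genes, the 10 largest ratios to WT that both KO sections shared inside the C1q-rich bins included products of B cells, fat and epithelium. *Cdkn2a*, the tumour suppressor locus of p16 and p19ARF, had 197, 45 and 0 UMIs, at least 31.7-fold and 19.8-fold higher than a WT limit of 3 UMIs. *Ighg1*, the heavy chain of IgG1, had 250, 110 and 2, *Bpifa1*, a secreted airway protein, 78, 266 and 1, *Slpi*, a secreted protease inhibitor, 644, 282 and 17, and *Glycam1*, a ligand of high endothelial venules, 104, 27 and 2. *Car3*, a fat gene, had 89, 105 and 1. *Cfd*, adipsin, which fat secretes, had 135, 307 and 3. *Gm36283* had 587, 204 and 13 UMIs, *Gm13299* 221, 69 and 6 and *Ildr2* 164, 19 and 2. All 10 were present in both KO sections with at most 17 UMIs in WT, and immunoglobulin genes share reads with near-identical copies. In the matched C1q-free bins *Cdkn2a* had 138, 46 and 0 UMIs, and was thus present outside the C1q-rich bins as well.

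Of the 10 smallest ratios, *Satb1*, a chromatin organiser of thymocytes, was the most abundant gene at 526, 695 and 4537 UMIs. *Cyp2c52-ps*, a pseudogene that may share reads with its family, had 0, 0 and 121 UMIs and *Dgkeos* 1, 57 and 382, which differed widely between the KO sections. *Scfd1*, a protein of vesicle transport, had 134, 64 and 597 and *Naa16*, a subunit of an N-terminal acetyltransferase, 154, 39 and 350. *Slc6a19*, *Slc16a5*, *Tube1*, *Gm37548* and *Gm13394* completed the set with 9 to 63 UMIs in the KO sections and 94 to 188 in WT. In the matched C1q-free bins all 10 were below WT in each KO section as well, where *Scfd1* had 135, 64 and 718 UMIs. Antisense and overlapping genes such as *Dgkeos* are uncertain, because the strand handling of the counting was not given in the sources used here.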

How the data were processed

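Gene counts per barcoded spot were deposited by the authors for 3 thymus sections as raw UMI counts. Per the labels and methods they were made with BSTMatrix 2.0 and STAR 2.5.1b on GRCm38, and no normalization had been applied. Here the spots were summed into squares of 27 µm, and squares with under 300 genes or over 30% mitochondrial UMIs were left out. C1q-rich bins were called at 3 UMIs and 0.15% of UMIs of *C1qa*, *C1qb* and *C1qc*, and each was matched to the C1q-free bin of the same section with the nearest UMI total. Bins are not replicates, so counts were summed per section and class and tested with edgeR 4.0.16 (quasi-likelihood, TMM scaling, section as a block, R 4.3.3) over genes with at least 50 UMIs in the sums, with an adjusted p threshold of 0.05 over all 13808 genes. The section block pairs the classes because both come from the same section of the same mouse. The KO and WT sections were compared by ratios of CPM with exact 95% intervals and no test, and a level of 0 was replaced by a limit of 3 UMIs. DESeq2 1.42.0 was an alternative. On simulated counts with the same totals, the edgeR step recovered 60.6% of 198 genes changed 2-fold and made 6 false calls among 13815 genes. The simulation gave all genes 1 common dispersion (0.0229), so it cannot give the rate of false calls for genes that vary more. Tables were made with Python 3.11.15, numpy 2.4.6, scipy 1.17.1 and pandas 2.3.3, and figures with matplotlib 3.10.9. The adjusted p-values concern the spread of the ratio of C1q-rich to matched bins over 3 sections, not the differences between the sections themselves.

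The bins and gene lists were chosen with earlier results of these data known. Named genes were macrophage core genes and the extremes of each list. Also named were the 15 largest and 10 smallest ratios among genes that passed the test. These genes had at least 100 UMIs and 1 direction in all 3 sections. The last set was the 10 largest and 10 smallest KO to WT ratios that both KO sections shared. Further members of the lists were named for their role with their values known. Whether counting used strand is not given in the sources used here. Some list members count in the totals of their lists but are not reported here by name.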

Additional observations from a re-analysis of the deposited data

Results flagged for a closer look

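*Ctsl*, *Lpl* and *Fabp4* differed in direction between the genotypes. *Ctsl* was at 0.933 times the matched bins in the C1q-rich bins of WT, with the interval below 1, and above 1 in both KO sections. *Lpl* was at 2.67 times the matched bins in WT and *Fabp4* at 1.54 times, while both were below 1 in each KO section. These differences were not tested. Bins that failed the limit of 300 genes and entered no comparison held C1q transcripts too, at 522 CPM in KO1134, 454 in KO1308 and 270.4 in WT.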

How the results depend on the processing

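The share of C1q-rich bins moved with the limits: it was 4.86, 4.24 and 2.63% with bins of 50 µm, 3.05% in KO1308 and 2.18% in WT with bins of 20 µm, 6.35, 1.04 and 0.990% at 5 UMIs, 0.897, 1.22 and 0.840% at 0.30% of UMIs, and 4.51% in KO1134 and 2.41% in WT after thinning to 500 UMIs. The numbers of higher and lower genes (180 and 43) were 49 and 35 with bins of 20 µm, 246 and 108 with bins of 50 µm, 443 and 165 without matching, 119 and 6 against bins 3 to 8 bins away, 326 and 29 in the thymus area, 183 and 78 at 0.30% of UMIs, 464 and 78 without TMM, 536 and 321 without a filter and 98 and 28 with DESeq2. Leaving out 1 section gave 34 to 255 higher, 9 to 269 lower and 2 to 9 core genes. Without the section as a replicate block no gene passed edgeR (0 higher, 0 lower, 0 core genes), with 440 genes at an unadjusted p under 0.05. The core count was 1 with bins of 20 µm and 5 against bins 3 to 8 bins away. Alternatives chosen after seeing the data left out the B-cell-rich bins (525 higher, 239 lower) or kept only connected groups of 200 bins (169 and 32), or used *C1qb* and *C1qc* alone, with which the mean C1q level of the KO sections over WT was 1.46 in place of 1.72. Inside C1q-rich bins, the mean of the KO sections over WT was 1.01 at 0.30% of UMIs, 1.15 in the thymus area and 1.15 without ribosomal protein and mitochondrial genes for the lysosome list (1.10 as reported), 1.76 with bins of 50 µm for complement (2.19), and 1.65 at 0.30% and 2.39 in the thymus area for interferon (1.96). For MHC class II (2.04) it was 2.11 with bins of 20 µm, 1.82 with 50 µm, 1.61 at 0.30%, 2.32 in the thymus area, 2.13 without ribosomal protein and mitochondrial genes and 1.97 without the B-cell-rich bins. The direction turned for *Chchd10* in the thymus area (log2 0.21 against -2.14) and for *Cd163* at 0.30% (1.07 against 0.333). *Cx3cr1* (0.08) turned in the thymus area (-0.19) and *Timd4* (0.48) without WT (-0.05), and neither passed in any of these. The causes were not tested. Counts per bin were low, with a median of 4 or 5 C1q UMIs, and 1 WT section limits every comparison of genotypes.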
